A study of Homo sapiens with 6 samples.

Results

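Collagens are the structural proteins of the extracellular matrix, and fibroblasts are their main producers in connective tissue. Each collagen is a trimer of alpha chains wound around each other, so a gene encodes a chain and some collagens need the products of several genes. Fibrillar chains build the fibers that carry tension, type IV chains form the sheets of basement membranes, FACIT chains sit on the surface of fibrils, and type VI chains assemble into beaded filaments around cells. The collagen chain genes were taken as all genes of the array annotation whose symbol is COL, digits, A and digits. This rule gave 43 genes, read by 112 probe sets, of 19775 genes with a probe set of their own. They were split into 11 fibrillar, 6 basement membrane, 10 FACIT, 5 beaded filament and 11 other chain genes. COL17A1 was not analysed here.

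All samples were IMR90 cells, a line of human diploid lung fibroblasts, that carry a Ras oncogene fused to the estrogen receptor (ER:Ras), which 4-OHT switches on and which drives oncogene-induced senescence (OIS), a stable exit from the cell cycle. For RB-KD OIS, 4-OHT was given at 100 nM for 6 days, and siRNAs against RB1, the retinoblastoma gene, were transfected 4 days before the RNA was taken. Ctrl-KD OIS cells had the same 4-OHT and a control siRNA, and growing cells were left without 4-OHT and siRNA. Each state had 2 arrays, labelled as biological replicates. Both OIS states thus differ from growing cells in 4-OHT, Ras and transfection together, which cannot be told apart, and the RB1 knockdown began when Ras was already on.

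The values are MAS5 signals, which are linear brightness values in arbitrary units and carry no detection call. The median signal of an array lay between 46.0 and 51.8, and the highest signal of an array between 54242 and 64701. RB1 itself was lower with its siRNA than with control siRNA by limma's moderated test (log2 fold change -3.30, standard error 0.14, adjusted p = 2.73e-06). All 10 fibroblast markers were above the array median on all 6 arrays, against 1 of 8 epithelial, 2 of 6 endothelial, 1 of 5 leukocyte and 2 of 5 smooth muscle markers. Over growing cells, 5 of the 10 fibroblast markers were lower and 2 higher in RB-KD OIS (median log2 fold change -0.42), and 6 were lower and 2 higher in Ctrl-KD OIS (median -0.55), with THY1 at -1.68 and -2.25 and PDGFRB at -1.60 and -2.09. The shares over all tested genes were 19.0% lower and 18.5% higher in RB-KD OIS, and 21.2% lower and 20.5% higher in Ctrl-KD OIS. The summed signal of the smooth muscle markers, of which ACTA2 and CNN1 were above the median on all arrays, ranged over 8040 to 9190 in RB-KD OIS, 7166 to 8071 in Ctrl-KD OIS and 25656 to 26965 in growing cells, and the part of both marker lists in the collagen results was not tested.

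Collagen genes covered the whole range of the arrays. Of the 43 genes, 27 exceeded the array median on both RB-KD OIS arrays, 27 on both Ctrl-KD OIS arrays and 28 on both growing arrays (62.8%, 62.8% and 65.1%), beside 59.3%, 59.5% and 59.1% of all genes. In at least 1 state 30 genes did so, 25 on all 6 arrays and 9 on no array. Among fibrillar genes 9 of 11 were above the median on all 6 arrays, against 4 of 6 basement membrane, 4 of 10 FACIT, 3 of 5 beaded filament and 5 of 11 other genes. The 9 genes above it on no array were COL9A1, COL9A3, COL19A1, COL21A1, COL6A5, COL6A6, COL23A1, COL26A1 and COL28A1. The 31 genes above the median on at least 2 arrays were tested, and the other 12 gave signals from 1.2 to 63.8 and no test.

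Collagen gene expression fell in Ctrl-KD OIS cells for more chains than it rose. RB depletion was accompanied by higher expression of some chains, not all of which had fallen. Comparing Ctrl-KD OIS to growing cells, 12 of 31 tested chain genes fell and 4 rose (limma, adjusted p under 0.05), a call rate of 51.6% beside 41.7% of all 13398 tested genes, of which 21.2% fell and 20.5% rose. The median log2 fold change of the 31 genes was -0.45, and that of all genes was -0.01. Comparing RB-KD OIS to growing cells, 8 rose and 8 fell, again 51.6%, beside 37.6% of all genes (18.5% rose and 19.0% fell), with a median of 0.01 against -0.02. Comparing both OIS states, 13 chain genes were higher with RB1 siRNA and 0 lower, 41.9% beside 24.2% of all genes (12.6% higher and 11.6% lower), and the median was 0.33 against -0.02. At an unadjusted p under 0.05, limma gave 17 higher and 0 lower in that comparison, and the arrays of both states did not overlap for 19 genes, all of them higher in RB-KD OIS cells (28.8% of all genes were higher and 30.8% lower without overlap). The 3 comparisons share arrays, so their counts are not independent of each other.

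**Figure D1:**
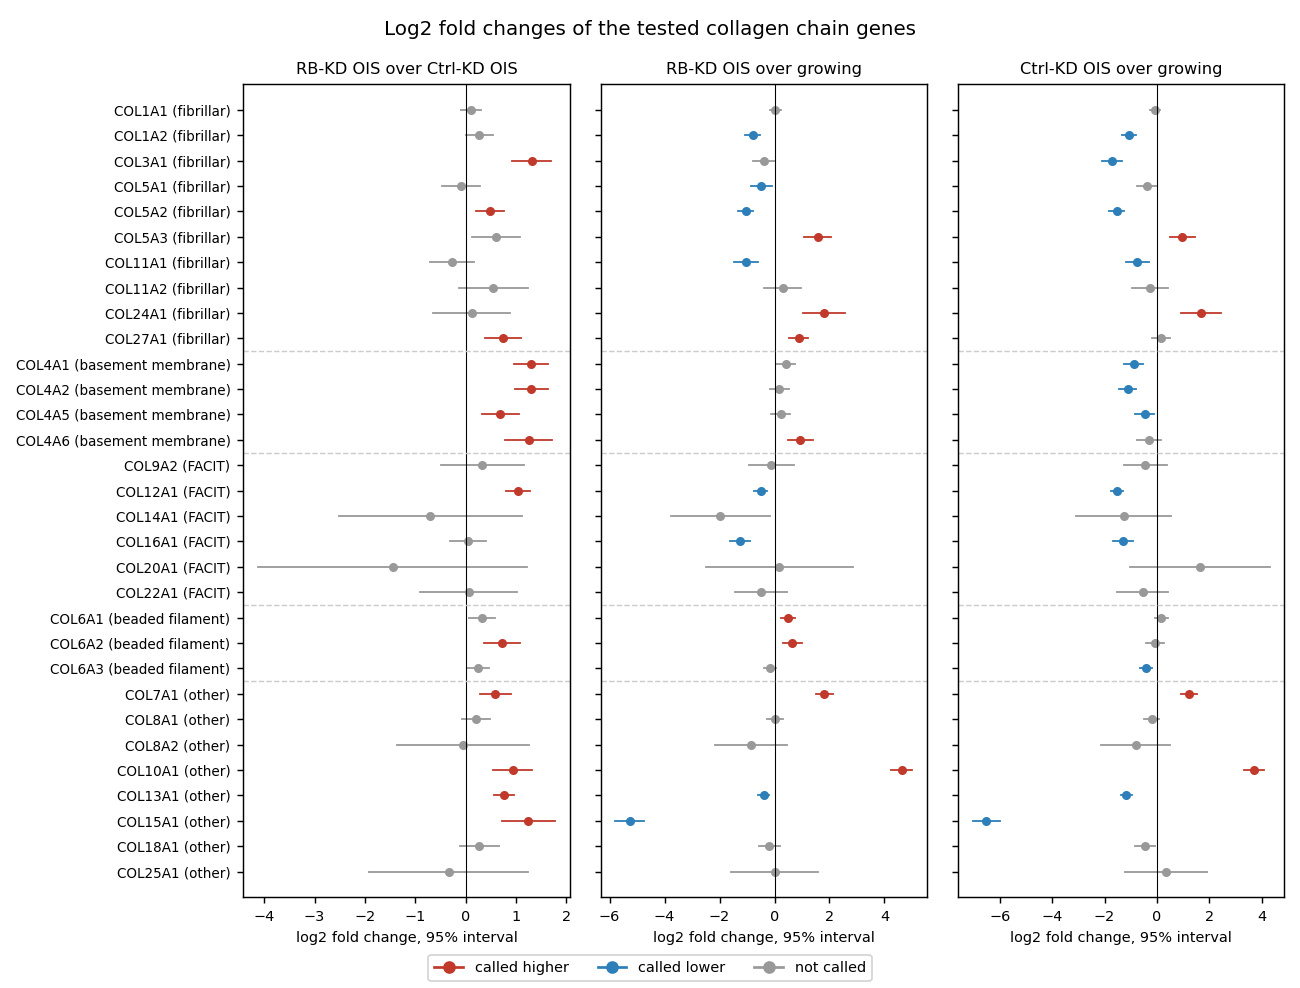
Log2 fold changes (horizontal axes, each panel with its own range) of the 31 tested collagen chain genes with 95% intervals, by class, in RB-KD OIS over Ctrl-KD OIS, RB-KD OIS over growing and Ctrl-KD OIS over growing cells. In the left panel 13 genes are called higher and 0 lower, while the right panel holds 12 called lower and 4 called higher.

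The level of collagen signals also differed between the 2 arrays of each OIS state. Replicate 1 was brighter than replicate 2 for 27 of 31 chain genes in RB-KD OIS cells and for 27 of 31 in Ctrl-KD OIS cells, against 15 of 31 in growing cells. For all tested genes the shares were 46.9%, 44.8% and 50.2%. The count of chain genes higher with RB1 siRNA than with control siRNA was 8 without RB-KD OIS replicate 1, 8 without Ctrl-KD OIS replicate 2, 17 without RB-KD OIS replicate 2 and 15 without Ctrl-KD OIS replicate 1. None of these settings gave a lower gene. Between the OIS states, the calls of COL3A1, COL4A1, COL4A2, COL10A1 and COL12A1 passed under every alternative tried. In RB-KD OIS over growing cells, 5 chain genes rose without RB-KD OIS replicate 1 in place of 8. Averaging a gene's probe sets in place of taking the brightest ended 13 calls of single chain genes over the 3 comparisons, and a prior variance with no trend also ended 13. Values with probe sets averaged are given beside the genes whose calls this ended.

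Among basement membrane chains, all 4 type IV chains that could be tested were higher with RB1 siRNA than with control siRNA. The arrays of both states did not overlap for any of them. Of all genes, 12.6% were called higher in this comparison and 28.8% were higher without overlap. COL4A1, a chain of the ubiquitous type IV network, gave 34599 and 24765 in RB-KD OIS cells, 13073 and 10785 in Ctrl-KD OIS cells, and 22957 and 21204 in growing cells. The Ctrl-KD OIS arrays were the lowest, and both RB-KD OIS arrays lay above the growing arrays. The log2 fold change was 1.30 for RB-KD over Ctrl-KD OIS (standard error 0.15, adjusted p = 0.000441), 0.41 for RB-KD OIS over growing (adjusted p = 0.0619) and -0.89 for Ctrl-KD OIS over growing cells (adjusted p = 0.00124). COL4A2, its partner in the same trimer, gave 16688 and 11763 in RB-KD OIS cells, 6129 and 5287 in Ctrl-KD OIS cells, and 12327 and 12501 in growing cells. Here the RB-KD OIS and growing arrays overlapped, and the Ctrl-KD OIS arrays lay below both. The log2 fold changes of COL4A2 were 1.30 (standard error 0.15, adjusted p = 0.000392) for RB-KD over Ctrl-KD OIS, 0.17 (adjusted p = 0.397) for RB-KD OIS over growing and -1.12 (adjusted p = 0.00027) for Ctrl-KD OIS over growing. Without RB-KD OIS replicate 2 the values over growing cells were 0.65 for COL4A1 (adjusted p = 0.00881) and 0.43 for COL4A2 (adjusted p = 0.0267), and both were then called higher.

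COL4A6, a chain of a type IV network found in fewer tissues, gave 1250 and 932 in RB-KD OIS cells, 501 and 413 in Ctrl-KD OIS cells, and 666 and 472 in growing cells. Only the RB-KD OIS arrays stood apart, with a log2 fold change of 1.25 over Ctrl-KD OIS (adjusted p = 0.00261) and 0.94 over growing cells (adjusted p = 0.0058), which was 0.73 without RB-KD OIS replicate 1 (adjusted p = 0.0548). COL4A5, which can pair with COL4A6, gave 3758 and 3052 in RB-KD OIS cells, 2465 and 1792 in Ctrl-KD OIS cells, and 3100 and 2744 in growing cells. Its log2 fold change of 0.69 for RB-KD over Ctrl-KD OIS (adjusted p = 0.0135) did not pass without RB-KD OIS replicate 1 (0.54, adjusted p = 0.105) or without Ctrl-KD OIS replicate 2 (0.46, adjusted p = 0.0644). Its -0.47 for Ctrl-KD OIS over growing cells (adjusted p = 0.0396) did not pass without Ctrl-KD OIS replicate 2 (-0.24, adjusted p = 0.235), without growing replicate 1 (-0.38, adjusted p = 0.196) or without growing replicate 2 (-0.56, adjusted p = 0.065). With probe sets averaged, the values for RB-KD over Ctrl-KD OIS were 1.18 for COL4A6 (adjusted p = 0.0659) and 0.54 for COL4A5 (adjusted p = 0.305), neither called, and the COL4A5 value for Ctrl-KD OIS over growing was 0.07 (adjusted p = 0.896). COL4A3 and COL4A4, chains of the kidney glomerular membrane, exceeded the median on 1 array each and were not tested. Of 6 endothelial markers, PECAM1 and TEK were above the median on all arrays and CDH5, KDR and EMCN on none, and their summed signal was 1450 to 1612 in RB-KD OIS, 561 to 577 in Ctrl-KD OIS and 1342 to 1452 in growing cells. TEK made up most of this sum, with means of 1295, 339 and 1189 in the same order, and was the only endothelial gene called, while PECAM1 averaged 136, 116 and 101 and VWF 47.0, 58.0 and 51.8. Whether this has a part in the type IV result was not tested.

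The type IV genes lie in head-to-head pairs, which is why their start regions are shown. In RefSeq (GRCh38.p14), COL4A1 and COL4A2 start on opposite strands of chromosome 13 with 127 bases between their starts, and the windows of 250 bases before and 50 bases from the start on share 226 bases. COL4A6 and COL4A5 are arranged in the same way on chromosome X, with 380 bases between the starts used here and 121 shared bases. The window of COL4A1 is chr13:110307108-110307407 on the minus strand, and that of COL4A6 is chrX:108439409-108439708 on the minus strand. Both are written 5′ to 3′ on the strand of the gene, and capitals mark matches on either strand to the GC box, spelled GGGCGG, and to the CCAAT box.
COL4A1: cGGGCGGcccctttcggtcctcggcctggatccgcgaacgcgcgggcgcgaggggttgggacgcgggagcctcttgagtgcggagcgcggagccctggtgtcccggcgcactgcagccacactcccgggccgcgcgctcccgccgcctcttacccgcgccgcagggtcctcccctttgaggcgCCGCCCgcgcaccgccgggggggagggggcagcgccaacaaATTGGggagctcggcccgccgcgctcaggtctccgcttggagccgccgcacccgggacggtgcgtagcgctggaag
COL4A6: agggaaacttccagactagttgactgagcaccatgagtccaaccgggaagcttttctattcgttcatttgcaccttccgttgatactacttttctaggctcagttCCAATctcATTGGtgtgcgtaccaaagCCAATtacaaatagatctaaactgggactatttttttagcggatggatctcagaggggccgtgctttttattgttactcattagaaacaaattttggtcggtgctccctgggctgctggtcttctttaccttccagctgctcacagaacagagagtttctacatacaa
The COL4A1 window held 2 GC boxes and 1 CCAAT box and had a G and C content of 76.7%, while the COL4A6 window held 3 CCAAT boxes and 0 GC boxes at 43.7%. In RefSeq windows of this length, 31 collagen genes had 43 windows, of which 55.8% held GGGCGG and 30.2% CCAAT, beside 45.0% and 34.6% of all 35116 windows. These 31 genes are not the same set as the 31 tested genes. Among others, COL1A1, COL1A2, COL3A1, COL5A2, COL6A1 and COL8A1 had no window, so the shares do not cover them. Some untested chain genes, such as COL19A1 and COL28A1, had windows. TATAAA was found in 7 of the 43 (16.3%, beside 11.5%), and the AP-1 letters TGACTCA in 0 (4.95% of all windows). The E2F letters TTTGGCGC or TTTCCCGC were found in 1 window, that of COL5A3 (2.33%, beside 2.27%). These are matches of letters on either strand and not measured sites.

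Fibrillar collagens were split by chain. Type I, III and V collagens share fibrils in connective tissue, and COL1A2, COL3A1 and COL5A2 all fell in Ctrl-KD OIS cells. COL3A1, the only chain of type III collagen, gave 25317 and 16389 in RB-KD OIS cells, 8873 and 7594 in Ctrl-KD OIS cells, and 26259 and 27509 in growing cells. The Ctrl-KD OIS arrays were below all others. The log2 fold change was 1.31 for RB-KD over Ctrl-KD OIS (standard error 0.17, adjusted p = 0.000859), -0.40 for RB-KD OIS over growing (adjusted p = 0.102) and -1.71 for Ctrl-KD OIS over growing cells (adjusted p = 5.18e-05). Without RB-KD OIS replicate 1 the value for RB-KD OIS over growing was -0.71. With all arrays, dimmer COL3A1 probe sets gave -0.81 (adjusted p = 0.0158), -0.84 (adjusted p = 0.071) and -1.74 (adjusted p = 0.00337) there by limma. The brightest probe set thus gave the smallest fall in RB-KD OIS among these. COL5A2, a chain of the type V collagen that nucleates fibrils, gave 12593 and 9471 in RB-KD OIS cells, 8193 and 7413 in Ctrl-KD OIS cells, and 22228 and 23084 in growing cells. Both OIS states lay below growing cells, with log2 fold changes of -1.05 for RB-KD OIS (adjusted p = 0.000192) and -1.54 for Ctrl-KD OIS (adjusted p = 1.38e-05). Its 0.49 for RB-KD over Ctrl-KD OIS (adjusted p = 0.0218) did not pass without RB-KD OIS replicate 1 (0.28, adjusted p = 0.112) or without Ctrl-KD OIS replicate 2 (0.41, adjusted p = 0.0995).

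COL1A2, a chain of type I collagen, gave 28899 and 21917 in RB-KD OIS cells, 21027 and 20698 in Ctrl-KD OIS cells, and 43227 and 44420 in growing cells. It fell in both OIS states, with log2 fold changes over growing cells of -0.80 in RB-KD OIS (adjusted p = 0.000666) and -1.07 in Ctrl-KD OIS (adjusted p = 8.71e-05). The difference between the OIS states was 0.27 (95% interval 0.00 to 0.54, adjusted p = 0.133), and it was called without RB-KD OIS replicate 2 (0.47, adjusted p = 0.0121). COL11A1, a minor fibril chain of cartilage that fibroblasts can also make, gave 429 and 317 in RB-KD OIS cells, 497 and 400 in Ctrl-KD OIS cells, and 687 and 818 in growing cells. It was lower in RB-KD OIS (-1.02, adjusted p = 0.00271) and in Ctrl-KD OIS (-0.75, adjusted p = 0.0118), and the Ctrl-KD OIS value did not pass without growing replicate 2 (-0.62, adjusted p = 0.0918) or without Ctrl-KD OIS replicate 2 (-0.59, adjusted p = 0.0744). With probe sets averaged neither value passed (-0.73, adjusted p = 0.128, in RB-KD OIS and -0.82, adjusted p = 0.0834, in Ctrl-KD OIS). COL5A1, the other main type V chain, was called lower through its brightest probe set in RB-KD OIS over growing cells (-0.48, adjusted p = 0.0471), a call that ended without either growing array (-0.45 and -0.52, adjusted p = 0.167 and 0.113) and without RB-KD OIS replicate 2 (-0.33, adjusted p = 0.262). Without Ctrl-KD OIS replicate 1 it was called lower in Ctrl-KD OIS too (-0.66, adjusted p = 0.00639). Its other probe sets were called lower in both OIS states, at -0.77 (adjusted p = 0.0211) and -0.91 (adjusted p = 0.0139) in RB-KD OIS and at -0.91 (adjusted p = 0.00819) and -0.67 (adjusted p = 0.0473) in Ctrl-KD OIS.

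Other fibrillar chains moved the opposite way. COL5A3, a type V chain of narrower distribution, gave 615 and 446 in RB-KD OIS cells, 388 and 307 in Ctrl-KD OIS cells, and 172 and 182 in growing cells. The 3 states did not overlap, with log2 fold changes over growing cells of 1.57 in RB-KD OIS (adjusted p = 0.000384) and 0.97 in Ctrl-KD OIS (adjusted p = 0.0051), and 0.60 between the OIS states (adjusted p = 0.0681, and 0.83 with adjusted p = 0.0459 without RB-KD OIS replicate 2). COL24A1, a minor fibrillar chain, gave 208 and 178 in RB-KD OIS cells, 205 and 154 in Ctrl-KD OIS cells, and 70.1 and 42.9 in growing cells, of which the last was under the array median. It rose in RB-KD OIS (1.81, adjusted p = 0.0026) and Ctrl-KD OIS (1.69, adjusted p = 0.00318). COL27A1, a fibrillar chain known from cartilage, gave 1490 and 1234 in RB-KD OIS cells, 909 and 730 in Ctrl-KD OIS cells, and 800 and 676 in growing cells. It was higher in RB-KD OIS than in growing cells (0.88, adjusted p = 0.00189) and higher with RB1 siRNA than with control siRNA (0.74, adjusted p = 0.00898), and the value against Ctrl-KD OIS did not pass without RB-KD OIS replicate 1 (0.60, adjusted p = 0.0751) or without Ctrl-KD OIS replicate 2 (0.58, adjusted p = 0.0521). With probe sets averaged neither value passed (0.46, adjusted p = 0.388, over growing and 0.58, adjusted p = 0.342, over Ctrl-KD OIS).

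For COL1A1, the main chain of type I collagen, the result depended on the probe set. Its brightest probe set, which the rule for choosing probe sets takes, gave 49088 and 43837 in RB-KD OIS cells, 46079 and 40256 in Ctrl-KD OIS cells, and 45586 and 45073 in growing cells. These values lie near the top of the arrays' range and overlapped in all states, with log2 fold changes of 0.11, 0.03 and -0.07 (adjusted p = 0.454, 0.811 and 0.569) for RB-KD over Ctrl-KD OIS, RB-KD OIS over growing and Ctrl-KD OIS over growing cells. The next probe set averaged 7185 in RB-KD OIS, 3865 in Ctrl-KD OIS and 13123 in growing cells, and gave 0.88 (adjusted p = 0.00302), -0.89 (adjusted p = 0.00121) and -1.77 (adjusted p = 1.28e-05), adjusted over 30139 probe sets. A dimmer probe set averaged 1794, 906 and 4327 in the same states and gave 1.02, -1.31 and -2.33, and all 3 values were called. The fourth averaged 378 in RB-KD OIS, 328 in Ctrl-KD OIS and 530 in growing cells and gave a called change of -0.67 in Ctrl-KD OIS over growing cells (adjusted p = 0.0473). The fifth, above the median on only 2 arrays, went the other way, with 39.0 in RB-KD OIS, 55.7 in Ctrl-KD OIS and 7.3 in growing cells (2.88 for Ctrl-KD OIS over growing, adjusted p = 0.0479).

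Probe sets also differed for COL1A2, COL5A2 and COL3A1. In Ctrl-KD OIS over growing cells, COL1A2 gave -1.07 and -1.09 through probe sets averaging 43823 and 42625 in growing cells, and -2.15 through one averaging 2702. COL5A2 gave -1.54 and -2.29 through probe sets averaging 22656 and 12187 in growing cells, and COL3A1 gave -1.71, -2.33 and -2.26 through probe sets averaging 26884, 16890 and 11367. Of the 16 chain genes with several probe sets above the median on all arrays, 13 had a called probe set in this comparison, and in 9 of these 13 the brightest probe set gave the smallest change. In the other comparisons the brightest probe set gave the smallest change in 6 of 13 genes for RB-KD OIS over growing and in 5 of 10 for RB-KD over Ctrl-KD OIS. Among probe sets above the median on all arrays, no gene had calls in opposite directions in any comparison, and among all tested probe sets COL1A1 did, through its dimmest tested probe set. Changes of the brightest chains are therefore given as those of the named probe sets, and the cause of the difference was not tested.

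**Figure D2:**
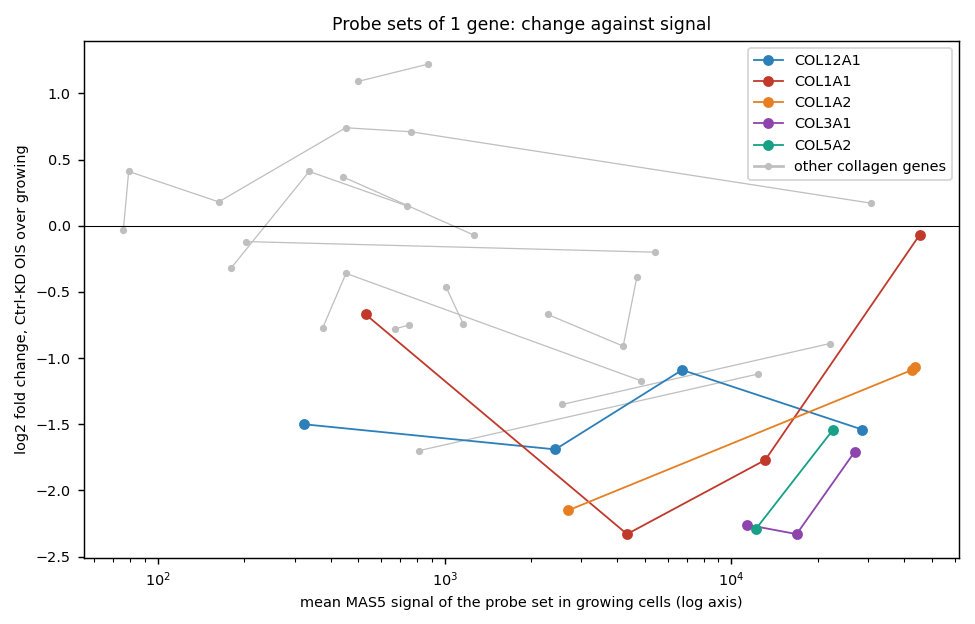
Log2 fold change in Ctrl-KD OIS over growing cells (vertical axis) against the mean MAS5 signal in growing cells (horizontal log axis) for each probe set above the median on all 6 arrays, with lines joining probe sets of a gene, for the 16 chain genes with several. The brightest COL1A1 probe set lies near 0 (-0.07) while the next lie at -1.77 and -2.33.

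Among FACIT genes, COL12A1 and COL16A1 carried the calls. COL12A1, whose product binds type I fibrils, gave 22156 and 18511 in RB-KD OIS cells, 10476 and 9220 in Ctrl-KD OIS cells, and 28837 and 28322 in growing cells. The 3 states did not overlap, and the order was growing, RB-KD OIS and Ctrl-KD OIS from high to low. The log2 fold changes were 1.04 (standard error 0.10, adjusted p = 0.000197) for RB-KD over Ctrl-KD OIS, -0.50 (adjusted p = 0.0046) for RB-KD OIS over growing and -1.54 (adjusted p = 4.2e-06) for Ctrl-KD OIS over growing cells. A second COL12A1 probe set gave 1.41, 0.32 and -1.09, of which the 0.32 was not called (adjusted p = 0.0961), and averaging the probe sets gave -0.45 (adjusted p = 0.107), so the position of RB-KD OIS against growing cells is not settled for this gene. COL16A1, a fibril-associated chain of fibroblasts and muscle, gave 610 and 870 in RB-KD OIS cells, 685 and 729 in Ctrl-KD OIS cells, and 1679 and 1793 in growing cells. It fell in RB-KD OIS (-1.25, adjusted p = 0.000322) and in Ctrl-KD OIS (-1.30, adjusted p = 0.000203), and the difference between the OIS states was 0.04 (95% interval -0.32 to 0.41). COL9A2, COL14A1, COL20A1 and COL22A1 were tested and not called, with signals between 6.4 and 200.1.

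Type VI chains, which are abundant in fibroblast matrix, had log2 fold changes between -0.42 and 0.72 in the 3 comparisons through their brightest probe sets. COL6A1 gave 48544 and 38291 in RB-KD OIS cells, 36144 and 32846 in Ctrl-KD OIS cells, and 29679 and 31821 in growing cells. COL6A2 gave 2281 and 1712 in RB-KD OIS cells, 1316 and 1095 in Ctrl-KD OIS cells, and 1192 and 1331 in growing cells. Both were highest on the RB-KD OIS arrays, with log2 fold changes over growing cells of 0.49 for COL6A1 (adjusted p = 0.00833) and 0.65 for COL6A2 (adjusted p = 0.00905), which did not pass without RB-KD OIS replicate 1 (0.32 and 0.44, adjusted p = 0.053 and 0.0682) or without growing replicate 1 (0.44 and 0.57, adjusted p = 0.0732 and 0.0646). With probe sets averaged the COL6A1 value was 0.64 and not called (adjusted p = 0.0614). A second COL6A2 probe set averaged 554 in RB-KD OIS, 572 in Ctrl-KD OIS and 441 in growing cells, so it was not highest in RB-KD OIS. By limma it gave 0.32 for RB-KD OIS over growing (adjusted p = 0.14) and -0.05 for RB-KD over Ctrl-KD OIS (adjusted p = 0.865). Probe sets of COL6A1 averaging 1806, 857, 317 and 172 in RB-KD OIS cells gave larger changes over growing cells (1.18, 0.92, 0.99 and 1.09, all called), so the value of COL6A1 was 1.18 with probe sets under 40000. The second of these was also called higher in Ctrl-KD OIS over growing (0.74, adjusted p = 0.00171), which the brightest was not (0.17, adjusted p = 0.297). COL6A2 was also higher with RB1 siRNA than with control siRNA (0.72, adjusted p = 0.00945), and this ended without RB-KD OIS replicate 1 (0.51, adjusted p = 0.0696) or Ctrl-KD OIS replicate 2 (0.59, adjusted p = 0.0577) and with probe sets averaged (0.33, adjusted p = 0.184). COL6A3, the longest of these chains, gave 49120 and 40417 in RB-KD OIS cells, 36593 and 38854 in Ctrl-KD OIS cells, and 51305 and 49589 in growing cells. In Ctrl-KD OIS it fell (-0.42, adjusted p = 0.00773), a call that ended without growing replicate 1 (-0.40, adjusted p = 0.0704), and like COL6A1 it was read close to the top of the arrays. Without RB-KD OIS replicate 2 both were called higher in RB-KD over Ctrl-KD OIS (COL6A1 0.49, adjusted p = 0.0175, and COL6A3 0.38, adjusted p = 0.0293), and without RB-KD OIS replicate 1 COL6A3 was called lower in RB-KD OIS over growing cells (-0.32, adjusted p = 0.0359). COL6A5 and COL6A6 were above the median on no array.

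The largest changes of all chain genes were in the remaining class. COL15A1, a chain found at the border of basement membranes and the underlying matrix, gave 89.4 and 72.5 in RB-KD OIS cells, 38.3 and 30.2 in Ctrl-KD OIS cells, and 3284 and 2912 in growing cells. The Ctrl-KD OIS arrays were under the array median, so the gene was at least 65.1-fold lower there than in growing cells (adjusted p = 1.16e-07), where the bound is taken against the array medians. In RB-KD OIS cells it was 38.4-fold lower than in growing cells (log2 fold change -5.26, standard error 0.23, adjusted p = 4.78e-07). The RB-KD OIS signals lay near the array medians of 47.0 and 46.8, so the size of this fall is uncertain. RB-KD OIS cells were at least 1.70-fold above Ctrl-KD OIS cells (adjusted p = 0.00489), and with only these states in the fit the difference did not pass (adjusted p = 0.144). COL10A1, the type X chain known from hypertrophic cartilage, moved the other way. It gave 1885 and 1779 in RB-KD OIS cells, 1066 and 862 in Ctrl-KD OIS cells, and 65.8 and 83.2 in growing cells. The 3 states did not overlap. The gene rose 24.8-fold in RB-KD OIS (log2 fold change 4.63, standard error 0.17, adjusted p = 1.6e-07) and 13.0-fold in Ctrl-KD OIS (3.70, adjusted p = 5e-07), and differed by 0.93 between the OIS states (adjusted p = 0.00443). A second COL10A1 probe set gave 0.83 (adjusted p = 0.057) between the OIS states, and 5.08 and 4.26 over growing cells in RB-KD and Ctrl-KD OIS. It read 40.4 on growing replicate 1, under the array median. As the growing signals of both probe sets lay near the median, the sizes of these rises are uncertain.

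COL7A1, the anchoring fibril chain below epithelia, gave 3359 and 2784 in RB-KD OIS cells, 2293 and 1803 in Ctrl-KD OIS cells, and 882 and 865 in growing cells. It rose in RB-KD OIS (1.81, adjusted p = 1.34e-05) and Ctrl-KD OIS (1.22, adjusted p = 0.000103). The difference of 0.59 between the OIS states (adjusted p = 0.0141) did not pass without RB-KD OIS replicate 1 (0.45, adjusted p = 0.106) or without Ctrl-KD OIS replicate 2 (0.42, adjusted p = 0.0717), nor with probe sets averaged (0.50, adjusted p = 0.0845). COL13A1, a transmembrane collagen of cell-matrix contacts, gave 3728 and 3554 in RB-KD OIS cells, 2202 and 2097 in Ctrl-KD OIS cells, and 4960 and 4682 in growing cells. Replicates were close and the states did not overlap, with log2 fold changes of 0.76 (adjusted p = 0.000377) for RB-KD over Ctrl-KD OIS, -0.40 (adjusted p = 0.00518) for RB-KD OIS over growing and -1.17 (adjusted p = 7.63e-06) for Ctrl-KD OIS over growing cells. The -0.40 did not pass without growing replicate 1 (-0.36, adjusted p = 0.0668). With probe sets averaged neither the 0.76 (0.43, adjusted p = 0.0558) nor the -0.40 (-0.34, adjusted p = 0.0809) passed, and the -1.17 was -0.77 (adjusted p = 0.00261). The other COL13A1 probe sets gave 0.37 and 0.16 between the OIS states (adjusted p = 0.124 and 0.661). COL8A1, COL8A2, COL18A1 and COL25A1 were tested and not called through their brightest probe sets, and COL8A1, a short-chain collagen of vessel walls, read 4124 to 5745 on all arrays. Without Ctrl-KD OIS replicate 1, COL8A1 and COL18A1 were called lower in Ctrl-KD OIS over growing (-0.39 and -0.71, adjusted p = 0.0219 and 0.0083) and higher in RB-KD over Ctrl-KD OIS (0.40 and 0.52, adjusted p = 0.0334 and 0.0476). A second COL18A1 probe set, averaging 777 in RB-KD OIS, 695 in Ctrl-KD OIS and 1160 in growing cells, was called lower in both OIS states with all arrays (-0.59, adjusted p = 0.0138, with RB1 siRNA and -0.74, adjusted p = 0.00365, with control siRNA).

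The start regions of the gene that fell most and of a gene that rose with a single annotated window are shown for comparison. The RefSeq windows are chr9:98943657-98943956 on the plus strand for COL15A1 and chr3:48595280-48595579 on the minus strand for COL7A1. Capitals mark matches on either strand to the GC box and, in COL7A1, also to the TATA box, spelled TATAAA.
COL15A1: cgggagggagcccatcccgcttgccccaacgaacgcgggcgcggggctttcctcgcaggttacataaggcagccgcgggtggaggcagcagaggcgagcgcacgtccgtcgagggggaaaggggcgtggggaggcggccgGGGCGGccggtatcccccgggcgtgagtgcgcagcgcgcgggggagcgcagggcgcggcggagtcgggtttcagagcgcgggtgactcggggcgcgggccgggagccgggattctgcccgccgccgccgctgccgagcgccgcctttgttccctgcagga
COL7A1: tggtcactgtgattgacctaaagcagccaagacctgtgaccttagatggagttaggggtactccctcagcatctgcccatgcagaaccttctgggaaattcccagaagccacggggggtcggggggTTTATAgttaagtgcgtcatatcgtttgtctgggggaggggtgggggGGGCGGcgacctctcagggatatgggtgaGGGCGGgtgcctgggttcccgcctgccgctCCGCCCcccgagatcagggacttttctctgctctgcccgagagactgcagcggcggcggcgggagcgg
COL15A1 had 1 GC box at a G and C content of 76.0%, and COL7A1 had 3 GC boxes and 1 TATA box at 62.3%. COL10A1 has 3 windows in RefSeq with G and C contents of 40.3%, 41.0% and 32.3%, and which start these cells use was not measured.

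**Figure D3:**
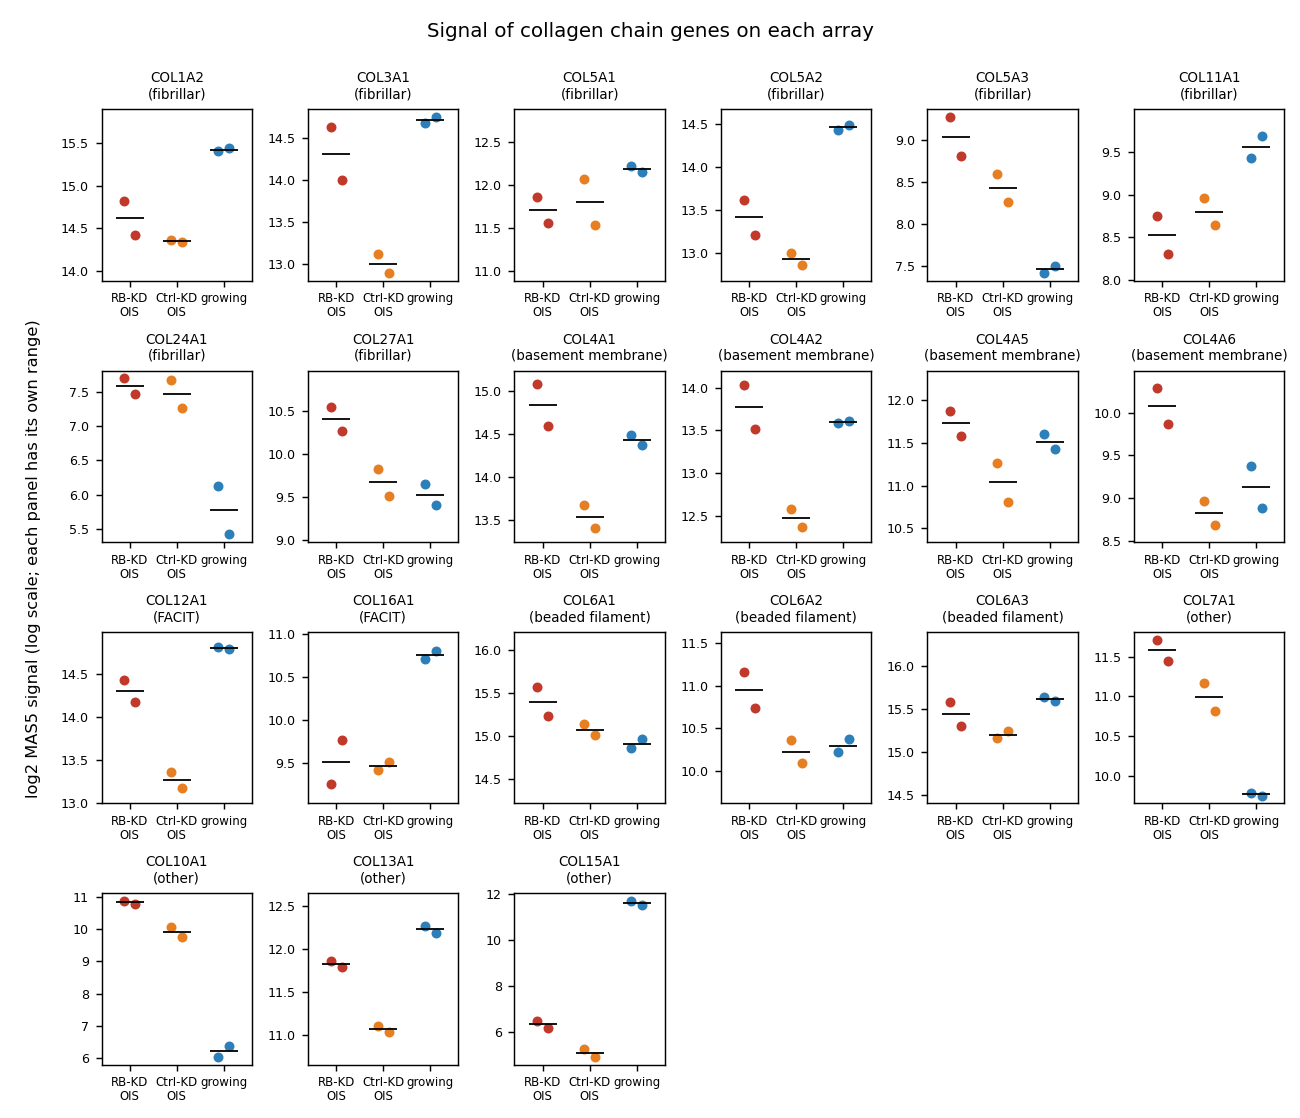
Log2 MAS5 signal (vertical axis, each panel with its own range) of the 21 chain genes called in at least 1 comparison, on the 2 arrays of RB-KD OIS, Ctrl-KD OIS and growing cells, with lines at the means. COL15A1 (89.4 and 72.5, 38.3 and 30.2, 3284 and 2912) and COL10A1 (1885 and 1779, 1066 and 862, 65.8 and 83.2) span the widest ranges, and the type IV chains are lowest on the Ctrl-KD OIS arrays, where COL4A6 overlaps growing cells.

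By pattern of calls through the brightest probe sets, the 31 tested genes fell into a few groups. COL3A1, COL4A1, COL4A2 and COL4A5 were below growing cells with control siRNA, not called against growing cells with RB1 siRNA and higher with RB1 siRNA than with control siRNA. Some dimmer COL3A1 probe sets were, however, called below growing cells with RB1 siRNA. Neither COL4A5 call passed with probe sets averaged, and both also ended on leaving out some single arrays. COL5A2, COL12A1, COL13A1 and COL15A1 were called below growing cells in both OIS states and higher with RB1 siRNA. With probe sets averaged, COL12A1 and COL13A1 were not called in RB-KD OIS over growing cells. The COL13A1 call between the OIS states ended too. COL1A2, COL11A1 and COL16A1 were lower in both OIS states with no call between these. Both COL11A1 calls ended with probe sets averaged. COL7A1 and COL10A1 were higher in both OIS states, with a further call between them, and COL5A3 and COL24A1 were higher in both with no call between them. The COL7A1 call between the OIS states ended with probe sets averaged. COL27A1, COL4A6 and COL6A2 were called only as higher in RB-KD OIS cells, against both other states. With probe sets averaged, their calls over Ctrl-KD OIS ended. No call does not mean no difference, since the intervals of several dim genes span more than 1 log2 unit on each side.

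Collagen is modified, folded, processed and crosslinked by dedicated proteins, and these were read as lists beside the chains. Of the tested genes for procollagen processing and crosslinking, more fell than rose in both OIS states. Over growing cells, 6 of 10 tested genes fell and 2 rose (PCOLCE and ADAMTS3) in RB-KD OIS, while 7 fell and 0 rose in Ctrl-KD OIS, with a list median of -0.67 in RB-KD OIS and -0.86 in Ctrl-KD OIS. Of all genes, 19.0% fell and 18.5% rose in RB-KD OIS, and 21.2% fell and 20.5% rose in Ctrl-KD OIS. LOXL1, a lysyl oxidase that crosslinks elastin and collagen, had log2 fold changes over growing cells of -2.81 in RB-KD OIS and -2.16 in Ctrl-KD OIS cells, and was lower with RB1 siRNA than with control siRNA at -0.65 (adjusted p = 1.92e-07, 7.2e-07 and 0.00261). LOXL3 and LOXL4 gave -2.09 and -2.05 in RB-KD OIS and -2.59 and -1.77 in Ctrl-KD OIS cells, and ADAMTS2, which removes the amino-terminal propeptide, gave -1.35 and -1.50, all of them called. In the list of collagen degradation, 6 of 6 tested genes were called above growing cells in RB-KD OIS (18.5% of all genes) and 5 of 6, without MMP2, in Ctrl-KD OIS (20.5% of all genes), and the list medians were 1.14 and 0.91. CTSK, a lysosomal protease that cleaves collagen, gave 2.62 in RB-KD OIS and 1.03 in Ctrl-KD OIS over growing cells and 1.58 between the OIS states (adjusted p = 0.000147). The collagenase MMP1 gave 1.62 and 1.55, the membrane protease MMP14 1.26 and 0.97, and the gelatinase MMP9 1.02 and 0.84 over growing cells in RB-KD and Ctrl-KD OIS, all called. MMP1 read 54242 on Ctrl-KD OIS replicate 1, the highest signal of that array, and 56411 to 58797 on the other OIS arrays. Its values in both OIS states were thus read near the top of the arrays' range.

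The prolyl and lysyl hydroxylases and the folding and export genes moved in both directions. Of 14 tested modification genes, 5 rose and 3 fell in RB-KD OIS and 4 rose and 2 fell in Ctrl-KD OIS against growing cells. That is 57.1% called in RB-KD OIS beside 37.6% of all genes, and 42.9% in Ctrl-KD OIS, near the 41.7% of all genes, with list medians of 0.10 and -0.02. The lysyl hydroxylase PLOD2 rose by 0.39 and 0.97, its relative PLOD1 by 0.52 and 0.63 and the prolyl 4-hydroxylase P4HA2 by 0.78 and 0.82 in RB-KD and Ctrl-KD OIS, while the prolyl 3-hydroxylase P3H2, which acts on type IV collagen among others, gave -1.41 and -2.27. P3H2 was higher with RB1 siRNA than with control siRNA by 0.86 (adjusted p = 0.000505), while PLOD2 was lower there at -0.58 (adjusted p = 0.000785). Between the OIS states, 2 of the 14 modification genes were called higher and 1 lower, 21.4% beside 24.2% of all genes. Of 10 folding and export genes, 2 rose and 3 fell in RB-KD OIS and 4 rose and 3 fell in Ctrl-KD OIS cells (5 of 10 and 7 of 10 called, beside the same 37.6% and 41.7%, with list medians of -0.23 and 0.02). CREB3L1, a membrane-bound transcription factor of collagen secretion, gave -2.25 and -2.33, and the collagen chaperone SERPINH1 -0.84 and -0.73, while the endoplasmic reticulum channel TMEM38B gave 1.85 and 1.89 and MIA2, an export factor, 1.10 and 0.93 in RB-KD and Ctrl-KD OIS cells, all called. Between the OIS states, 0 of the 10 folding and export genes were called higher and 2 lower with RB1 siRNA (20.0% beside 24.2% of all genes).

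Receptors and fibril-binding proteoglycans held genes that differed between the OIS states. Of 9 tested collagen receptors, 4 were higher and 0 lower with RB1 siRNA than with control siRNA by limma (median 0.60, and 4 of 9 is 44.4% beside the 24.2% of all genes). ITGA1, an integrin chain that binds type IV collagen, gave 1.73 (adjusted p = 0.00459) there, -0.17 (adjusted p = 0.726) in RB-KD OIS and -1.90 (adjusted p = 0.00118) in Ctrl-KD OIS over growing cells. The fibrillar collagen receptor kinase DDR2 gave 0.88, -0.59 and -1.46 in the same order, all called. ITGA2 rose in both OIS states (1.13 in RB-KD and 0.72 in Ctrl-KD OIS), and ITGA10 fell in Ctrl-KD OIS cells (-1.25, adjusted p = 0.0209). Of 5 tested small leucine-rich proteoglycans, LUM was higher (1.65, adjusted p = 0.000209) and BGN lower (-0.89, adjusted p = 0.00636) with RB1 siRNA than with control siRNA. DCN, which coats type I fibrils, gave -2.84 in RB-KD OIS and -2.70 in Ctrl-KD OIS over growing cells, both called.

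**Figure D4:**
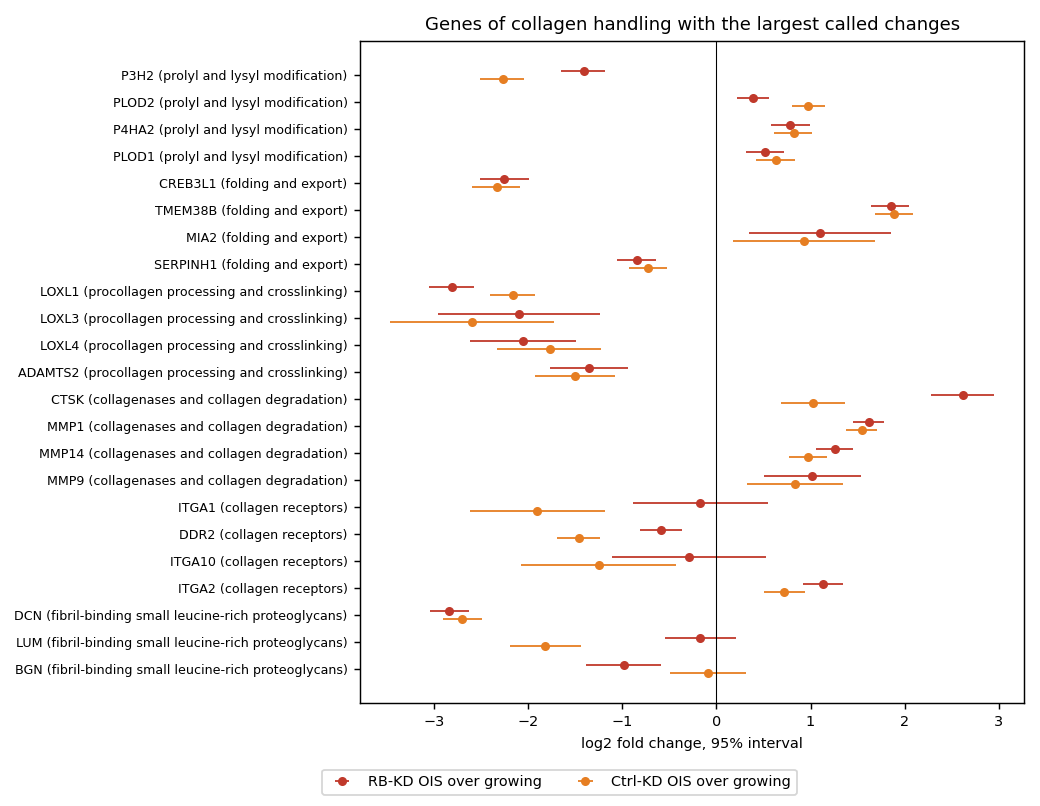
Log2 fold changes over growing cells with 95% intervals (horizontal axis) for up to 4 called genes of each list of collagen handling, in RB-KD OIS (red) and Ctrl-KD OIS (orange). LOXL1, LOXL3, LOXL4 and ADAMTS2 lie below 0 (-2.81 to -1.35) and CTSK, MMP1, MMP14 and MMP9 above it (0.84 to 2.62) in both states.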

How the data were processed

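RNA of IMR90 ER:Ras cells in 3 states, with 2 arrays each and grouped by their labels, was read on Affymetrix U133 Plus 2.0 arrays. The deposited intensity values are linear MAS5 signals that the authors computed in Affymetrix Expression Console, and their trimmed means (496.2 to 496.5 when 2% is cut at each end) show scaling to a common level. They were taken to log2 without further normalization. Where a gene had several probe sets of its own, the brightest was used. Genes had to exceed the median of the array on 2 or more of the 6 arrays. They were fitted with limma 3.58.1 (R 4.3.3), with the mean of each state estimated from all 6 arrays and a trended prior variance, and Benjamini-Hochberg adjustment ran over 13398 genes at a threshold of 0.05. The number of arrays limits the precision, and p values speak only for these samples. The spread they use for a gene is drawn in part from other genes (3 residual and a median of 6.02 prior degrees of freedom). A gene under the median on all arrays of a state was given as a bound against the medians.

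Alternative settings changed the scaling (quantile normalization, median centring), the offset (16), the filter (none, or percentile 70), the probe sets (their mean), the prior (no trend), the samples (only the compared states, each array left out) and the model (a replicate block). Probe sets under 40000 on every array were added after seeing the data. All chain genes may be named, and up to 4 called genes with the largest change of each list of collagen handling. The collagen genes and lists were chosen with earlier results of these data known. Promoter windows came from RefSeq (GRCh38.p14).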

Additional observations from a re-analysis of the deposited data

How the results depend on the processing

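Counts of called chain genes held within 1.5 times their value under all alternatives but these. With the mean of all probe sets, 7 genes were higher with RB1 siRNA than with control siRNA and 5 were below growing cells in RB-KD OIS, of 26 tested. With no trend in the prior variance, 8 were higher with RB1 siRNA than with control siRNA, and 5 exceeded growing cells in RB-KD OIS. Leaving out each array in turn gave 8 to 17 higher and 0 lower in RB-KD against Ctrl-KD OIS, 5 to 10 higher and 6 to 10 lower in RB-KD OIS against growing, and 4 higher and 10 to 15 lower for Ctrl-KD OIS over growing cells. The 5 came without RB-KD OIS replicate 1. Chain genes above the median in some state numbered 30 to 34 on leaving out an array, 26 with the mean of all probe sets, and 23 at percentile 70.

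Of 1449 gene-level values, 36 changed sign, and 34 of these were called neither before nor after. COL4A5 in Ctrl-KD OIS against growing cells was 0.07 with the mean of all probe sets (adjusted p = 0.896), where the second probe set is above the median on 1 array. COL1A1 in RB-KD OIS against growing cells was -0.89 with probe sets under 40000 (adjusted p = 0.00107). The other values that changed their call lost it in 55 cases and gained it in 27, and 1365 kept it.

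With the replicate number as a block, the counts were 14 higher and 0 lower for RB-KD against Ctrl-KD OIS, 9 and 9 for RB-KD OIS against growing, and 4 and 14 for Ctrl-KD OIS over growing cells. COL5A3 was then called in the first comparison, COL3A1 and COL4A1 in the second, and COL5A1 and COL18A1 in the third. Deviations of same-numbered arrays correlated at 0.035, 0.0102 and -0.00384 over genes, so over all genes the numbers are not shown to pair the samples, and for the chain genes alone, most of which had replicate 1 brighter in both OIS states, pairing was not settled. Among the 25 chain genes above the median on all arrays, 12 were higher and 0 lower in RB-KD against Ctrl-KD OIS, 7 and 7 in RB-KD OIS against growing, and 3 and 11 for Ctrl-KD OIS over growing cells. Median centring moved the median of all genes in RB-KD OIS against growing cells to 0.10, and the 31 chain genes then had a median of 0.12. Signals near the array median limit the dim chains. Signals near the top of the arrays may limit COL1A1, COL1A2, COL6A1 and COL6A3, which was not tested.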
